A study of Mus musculus with 4 samples.

Results

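The cytosolic ribosomal protein genes are those whose symbol is Rpl or Rps followed by a digit, together with Rplp0, Rplp1, Rplp2 and Rpsa, without Rps6k kinase genes and pseudogenes. By this rule 48 of the 12393 genes named on the array were members, each read from its brightest probe set (a group of short probes for one transcript) that carries 1 gene symbol. They comprise 20 large subunit genes, 20 small subunit genes, 2 genes of the ribosomal stalk and 6 paralogues of such genes. Another 30 symbols that fit the pattern, Rplp1 among them, occurred only on probe sets shared with other symbols, which are counted as a class and not named. The RNA came from tumour-associated macrophages, sorted by flow cytometry out of digested tumours of GIST mice, which develop gastrointestinal stromal tumour, a sarcoma of the gut wall. One group of mice received vehicle. The other drank water with 600 mg/L imatinib, which blocks Kit, the kinase that drives most of these tumours, and also Abl, Pdgf receptors and Csf1r, on which macrophages depend. Both groups were treated for 2 weeks. The labels name no strain, driver allele or age. According to the design text, sorted cells from the 8 mice of a group went into 1 pool that was put on 2 arrays, although the titles speak of biological replicates. If so, the p-values below reflect how far duplicate arrays differ, possibly for technical reasons alone, and not how far mice differ.

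The ribosome translates mRNA into protein. Its small subunit holds the decoding site, its large subunit holds the site of peptide bond formation, and a flexible stalk of P proteins on the large subunit recruits the elongation factors. Ribosomal protein mRNAs are short and among the most abundant of any cell, and most of them begin at a C followed by a run of pyrimidines, the 5′ terminal oligopyrimidine (TOP) tract, through which mTOR signalling and the RNA-binding protein Larp1 control their translation. Transcript level and translation are therefore separate layers, and the arrays read the first of them.

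The bases around the annotated transcription start are shown for the 4 genes that passed the test. They are also shown for 3 genes chosen for a clear pyrimidine tract, whose brightest probe set did not pass it. Members that had no tract and did not pass are not shown. Each line runs 5′ to 3′ from 10 bases before the start through the first 15 transcribed bases, and capitals mark a C followed by at least 7 bases that are each C or T, read on the gene's strand and beginning within 10 bases of the start. The sequences are RefSeq's on build GRCm38.p6.
Rplp0 (chr5:115559457-115559481, plus strand): cgggtttcgaggaccgcctggttct
Rps3 (chr7:99483695-99483719, minus strand): aagggtcgccgcgctgcgcggcgtc
Rps19 (chr7:24884582-24884606, plus strand, the first of 3 annotated starts): aatctcgcgagactcgacgcccgac
Rpl27a (chr7:109519185-109519209, plus strand): cgtgagCTCCTCCCTTTTCCCTTTC
Rps10 (chr17:27635230-27635254, minus strand): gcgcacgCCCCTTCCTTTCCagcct
Rpl35 (chr2:39005117-39005141, minus strand): ccgCCCTTTCCTCTTTCTCTCgaac
Rps18 (chr17:33955651-33955675, minus strand): cacttccgCTCTCTCTTCCacagga
Such a tract was found at an annotated start of 17 of the 42 members with a sequence (40.5%) and of 9.43% of all 27025 genes in the same table. Annotated starts can lie some bases from the true one, so a missing tract says only that these letters are not in this window. The letters CCGGAAGT, a binding motif of ETS factors, were found on either strand of the 300 bases from 250 before to 50 after the start in 10 of the 42 members (23.8%) and in 4.31% of all genes. The corresponding shares were 9.52% and 8.09% for the E-box CACGTG, the motif of Myc, and 14.3% and 15.7% for TATAAA. These matches describe the windows and are not sites of binding. The 17 tested members with a tract had a median log2 difference, imatinib minus vehicle, of 0.09 (-0.78 to 0.24), with 0 called higher and 1 lower in limma. The 23 without one had a median of 0.11 (-0.34 to 0.36), with 3 higher and 0 lower, and the difference between these sets was not tested.

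Ribosomal protein transcripts were abundant and, on the scale of the deposited values, close to level between the groups. Of the 20 brightest genes on the array 8 were members, as were 34 of the 200 tested genes with a mean signal above 9000. Of the 48 members 46 were bright enough to test. At a Benjamini-Hochberg adjusted p below 0.05 (limma, on log2 of signal plus 32, adjusted over all 8145 tested genes) 3 members were higher with imatinib, Rplp0, Rps3 and Rps19, and 1 was lower, Rpl27a. The background in the same test was 6.8% of all tested genes called higher and 8.73% called lower. The members' shares were 6.52% and 2.17%, so with the brightest probe set of each gene the share called higher lay near the background. The median log2 difference, imatinib minus vehicle, was 0.10 over the 46 members and -0.02 over all tested genes. The members' differences were also tighter, with an interquartile range of 0.17 against 0.39, and 42 of the 46 differed by less than 1.2-fold, as did 62.6% of all tested genes. The median SE was 0.07 for the members and 0.15 for all tested genes. The members were also much brighter, with a median signal of 16587 against 424, and their spread was not compared with that of equally bright genes.

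**Figure D1:**
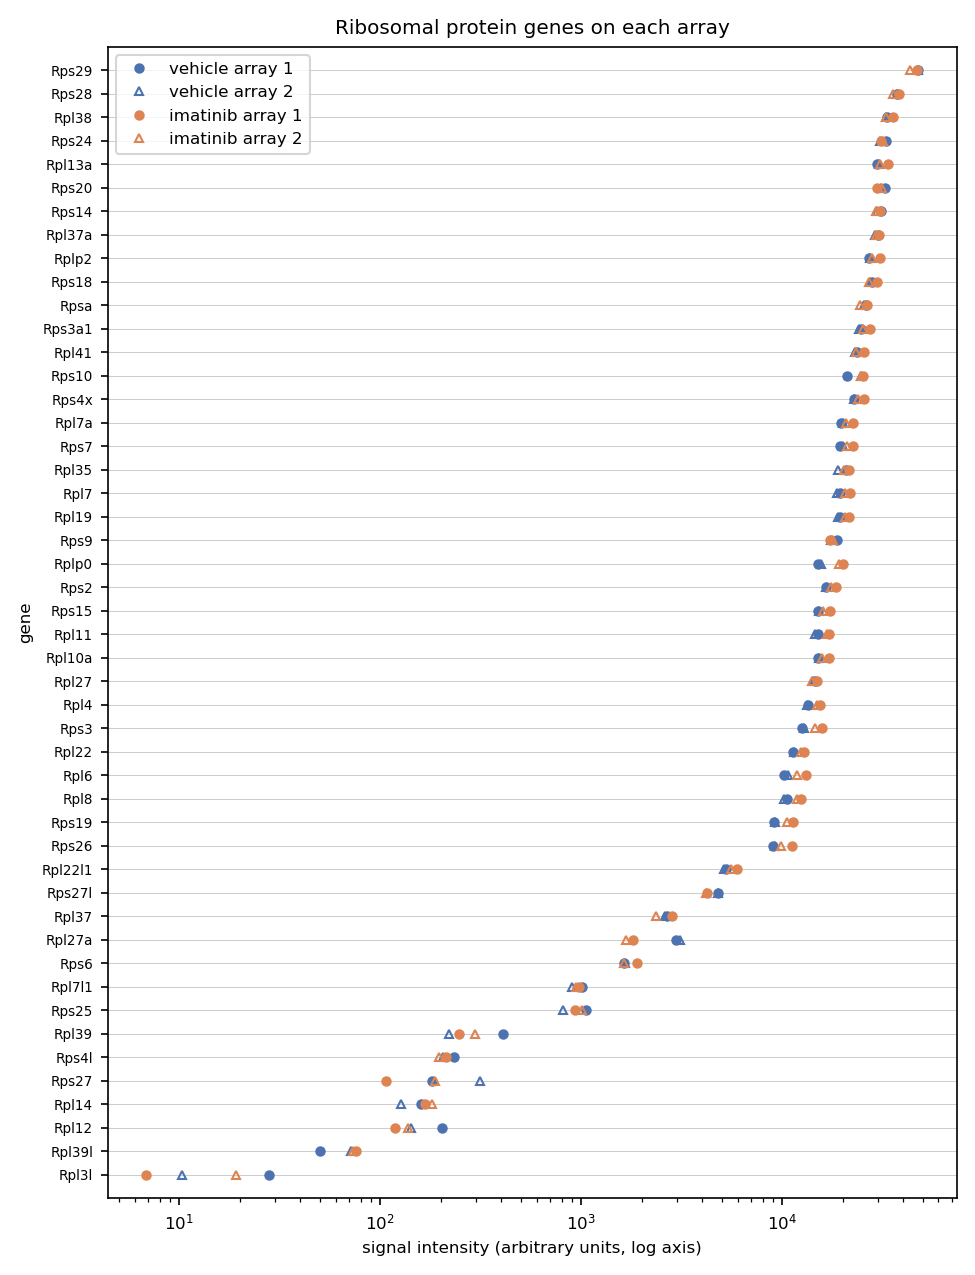
Signal of each of the 48 ribosomal protein genes on each of the 4 arrays (log axis, arbitrary units), sorted by mean signal, with vehicle in blue and imatinib in orange. Most members lie above 9000 with the 4 arrays close together, Rpl27a, at a mean of 2388, has both imatinib arrays clearly to the left, and a few members below 400 scatter widely.

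The largest increase was in the stalk. Rplp0 encodes P0, the scaffold that anchors the stalk to the large subunit, and read 15039 and 15694 on vehicle against 20101 and 19257 under imatinib. Both imatinib arrays lay above both vehicle arrays. The increase was 1.28-fold (log2 difference 0.36 ± 0.07, SE, limma adjusted p = 0.0060), and turned to -0.16 on a scale of equal macrophage markers. It was not called without vehicle replicate 1 (0.33, adjusted p = 0.069) or when limma was fitted without its mean-variance trend (adjusted p = 0.12). Rplp2, one of the acidic proteins that P0 carries, read 27224 and 27448 on vehicle against 30746 and 28006 under imatinib. Its groups did not overlap either, yet its log2 difference of 0.10 had a 95% interval from -0.06 to 0.27 and did not pass the test (adjusted p = 0.41).

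Among the 20 small subunit genes 2 were called higher (10%) and none lower, against 6.8% and 8.73% of all tested genes. Their median was 0.08, with 12 positive differences. Rps3, which lines the mRNA entry channel of the small subunit, read 12504 and 12799 on vehicle against 15876 and 14528 under imatinib (log2 difference 0.26 ± 0.07, SE, limma adjusted p = 0.037). Rps19, the gene most often mutated in Diamond-Blackfan anaemia, read 9122 and 9188 on vehicle against 11350.0 and 10612 under imatinib (0.26 ± 0.07, limma adjusted p = 0.036). For both genes the imatinib arrays lay above the vehicle arrays. Both calls were close to the threshold, and with the arrays scaled to equal macrophage markers both genes were lower instead (-0.25 and -0.26). With the replicate number as a block the adjusted p was 0.086 for Rps3 and 0.085 for Rps19, under quantile normalization 0.16 and 0.11, and without the filter on dim genes 0.12 and 0.092. Neither passed without vehicle replicate 1 (0.19 and 0.16), without vehicle replicate 2 (0.12 in both) or without imatinib replicate 1 (0.16 and 0.15).

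The brightest small subunit genes did not pass. Rps29, the brightest gene of all on the array, read 47681 and 47333 on vehicle against 47079 and 43131 under imatinib, so that its imatinib arrays were the lower ones (-0.08, 95% interval -0.24 to 0.08). Rps28 read 37466 and 37526 against 38242 and 35696 (-0.02, -0.18 to 0.13). Rps24 read 32953 and 30655 against 31024 and 31799.6 (-0.02, -0.18 to 0.14). In Rps28 and Rps24 the groups overlapped. Rpsa, also known as the precursor of the laminin receptor, read 26105 and 25639.5 on vehicle against 26412 and 24414 under imatinib (-0.03, adjusted p = 0.86). Rps6, the substrate by which S6 kinase activity is commonly followed, was read by a dimmer probe set at 1638 and 1646 against 1888 and 1628 (0.09, adjusted p = 0.59). The other small subunit differences ranged from -0.63 for Rps27, whose probe set was dim (181 and 313 against 107 and 187, adjusted p = 0.16), to 0.20 for Rps26 (9044 and 9195 against 11209 and 9827, adjusted p = 0.13).

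Among the 20 large subunit genes 1 was called lower (5%) and none higher, against 8.73% and 6.8% of all tested genes. Their median was 0.10, with 16 positive differences. Rpl27a, which encodes the large subunit protein uL15, fell from 2968 and 3088 to 1821 and 1676. The groups were far apart, with a log2 difference of -0.78 ± 0.09 (SE, 95% interval -0.98 to -0.59, 0.58 of the vehicle level, limma adjusted p = 0.00012). This call held under all 19 alternatives, whose values ranged from -1.29 to -0.46. The gene's other probe set with 1 symbol was too dim to test, at 87.8 and 90.4 on vehicle against 73.9 and 59.5 under imatinib. At 2388 on average the Rpl27a probe set was well below the typical member, whose median was 16587.

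Rpl6, Rpl8 and Rpl11 of the large subunit did not pass, with limma adjusted p from 0.055 to 0.099. Rpl6 read 10182 and 10756 on vehicle against 13204 and 11814 under imatinib (log2 difference 0.25, adjusted p = 0.055), and Rpl8, a protein of the catalytic core, read 10596 and 10189 against 12418 and 11806 (0.22, adjusted p = 0.067). Rpl11, which with Rpl5 and 5S RNA can bind and inhibit Mdm2, read 15046 and 14650.2 against 17178 and 16694 (0.19, adjusted p = 0.099). In all 3 genes the imatinib arrays lay above both vehicle arrays. Over all tested members this was so for 22 of 46, against 26.1% of all tested genes. In 4 of 46 members both imatinib arrays lay below, against 29.9%. These shares were not compared with those of equally bright genes. In the brightest large subunit genes the difference was smaller, with Rpl38 at 33322 and 32901 against 35556 and 32777 (0.04, adjusted p = 0.75) and Rpl13a, known also for its role in interferon-dependent translational silencing, at 29797 and 30376 against 33786 and 30861 (0.10, adjusted p = 0.41). Rpl12, Rpl14 and Rpl39 were read by probe sets with signals from 118 to 407, and none of the 3 passed (adjusted p = 0.37, 0.49 and 0.77).

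**Figure D2:**
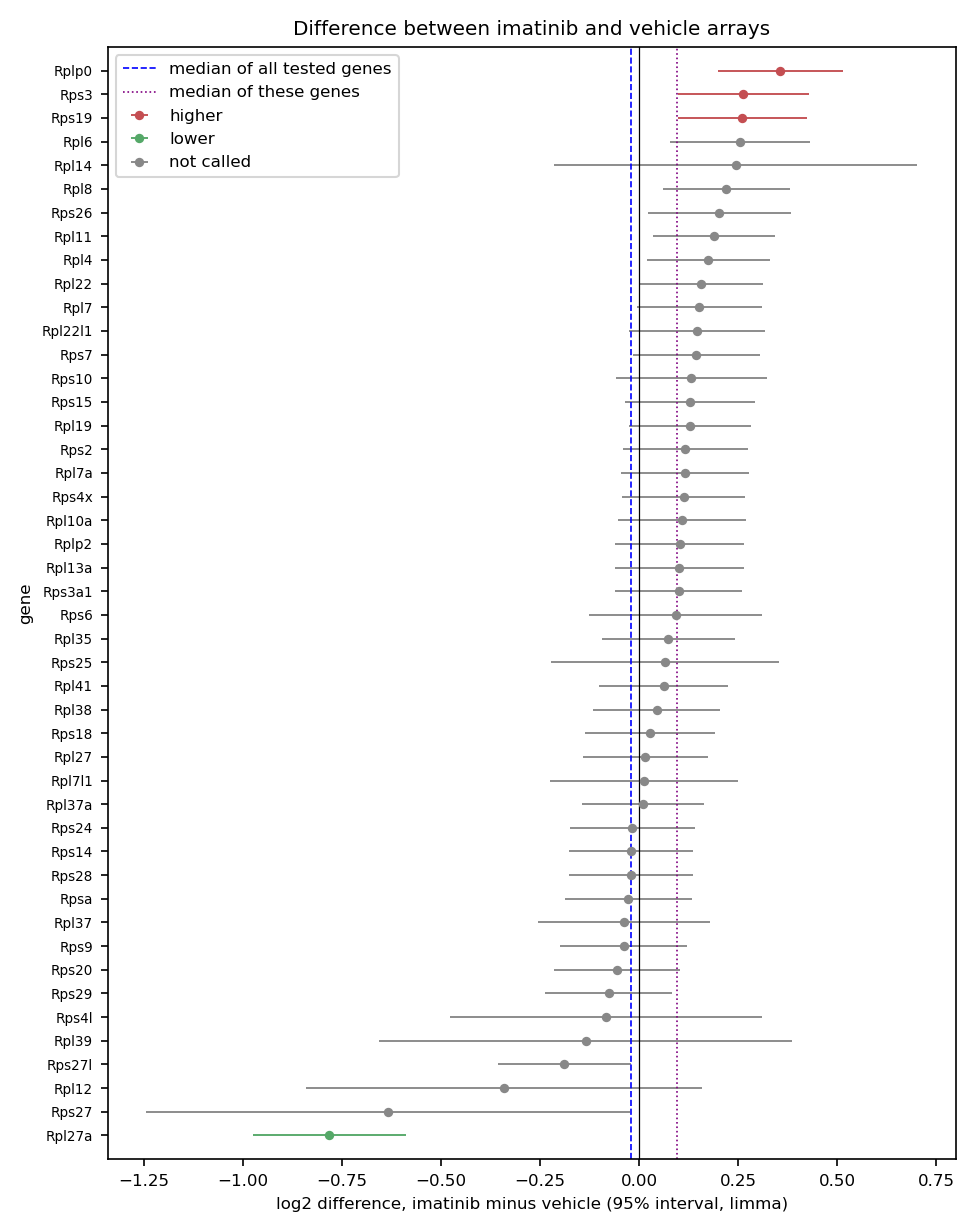
Log2 difference, imatinib minus vehicle, of the 46 tested ribosomal protein genes with its 95% interval from limma, coloured by call; the dashed line is the median of all tested genes (-0.02) and the dotted line that of these genes (0.10). Rplp0, Rps3 and Rps19 stand at the top, Rpl27a stands apart at the bottom, and the intervals of most other genes include 0.

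Paralogues of the main genes showed no call. Rps27l, a p53-induced paralogue of Rps27, read 4803 and 4786 on vehicle against 4243 and 4164 under imatinib. Its imatinib arrays were both the lower ones, with a log2 difference of -0.19 ± 0.08 (SE, limma adjusted p = 0.13), and its 3 probe sets differed by -0.24 to -0.19. Under quantile normalization it was called lower. Rpl22l1, the paralogue of Rpl22, read 5277 and 5138 against 5982 and 5552 (0.15, adjusted p = 0.26), beside 0.16 for Rpl22 itself. Rpl7l1 had 0.01 and Rps4l -0.08. The muscle paralogue Rpl3l, with signals from 6.85 to 27.8, and Rpl39l, with signals from 50.4 to 75.8, lay below the filter on both groups of arrays and were not tested.

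Probe sets of the same gene did not always give the same difference. The 48 members have 100 probe sets with 1 symbol, of which 84 were tested, with 9 called higher and 2 lower (limma over 13576 probe sets, background 6.28% higher and 7.35% lower). Of 19 members with several tested probe sets, 11 had all of them on one side of 0, 8 had both signs, and none was called in both directions. Rpl13a differed by 0.10 on its brightest probe set and by 0.35 on a dimmer one that read 10347 and 11294 on vehicle against 14286 and 13288 under imatinib (limma adjusted p = 0.013). Rpl27, next in number to Rpl27a but another gene, differed by 0.02 on its brightest probe set and by 0.29 on one that read 10871 and 11000.2 against 14009 and 12841 (adjusted p = 0.024). Rpl7 (0.55, adjusted p = 0.023) and Rps7 (0.28, adjusted p = 0.046) likewise each had a dimmer probe set called higher and a brightest one that was not. Rps10 differed by 0.13, 0.15, 0.24, 0.31 and 0.64 from its brightest to its dimmest tested probe set, and the last 2 passed. Rps24 went the other way, with -0.02 on its brightest probe set and -0.35 on one that read 17299 and 16666 against 12891 and 13800.4 (adjusted p = 0.0090). Mean of the probe sets in place of the brightest gave 7 of 46 members higher (15.2%, against 6.69% of all tested genes) and 1 lower. Probe sets with IDs that do not mark shared probes gave 6 higher and 1 lower of 38 tested (15.8% higher, against 7.35% of all tested genes). With either choice the members' share called higher lay above that of all tested genes, most of which were much dimmer. Equally bright genes were not compared under these choices. Ribosomal protein genes have many processed pseudogenes and near-identical copies, so the transcript behind a single probe set is uncertain.

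The median difference varied between bands of signal, and was highest in the middle one. Cuts at 10000 and 20000 were chosen after the values were seen. The 20 members at 20000 and above had a median of 0.07 with none called, the 13 members between 10000 and 20000 had a median of 0.17 with 3 higher, and the 13 below 10000 had a median of -0.04 with 1 lower. Genes that are not members showed medians of 0.03, 0.10 and -0.02 in the same bands (38, 100 and 7961 genes), with 7.89%, 30.0% and 6.51% called higher. In the middle band the members' share of 23.1% was thus below that of the other genes. When testing was restricted to genes at or above the 90th percentile of signal, 5 of 39 members (12.8%) were higher against 24.8% of 1429 genes.

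**Figure D3:**
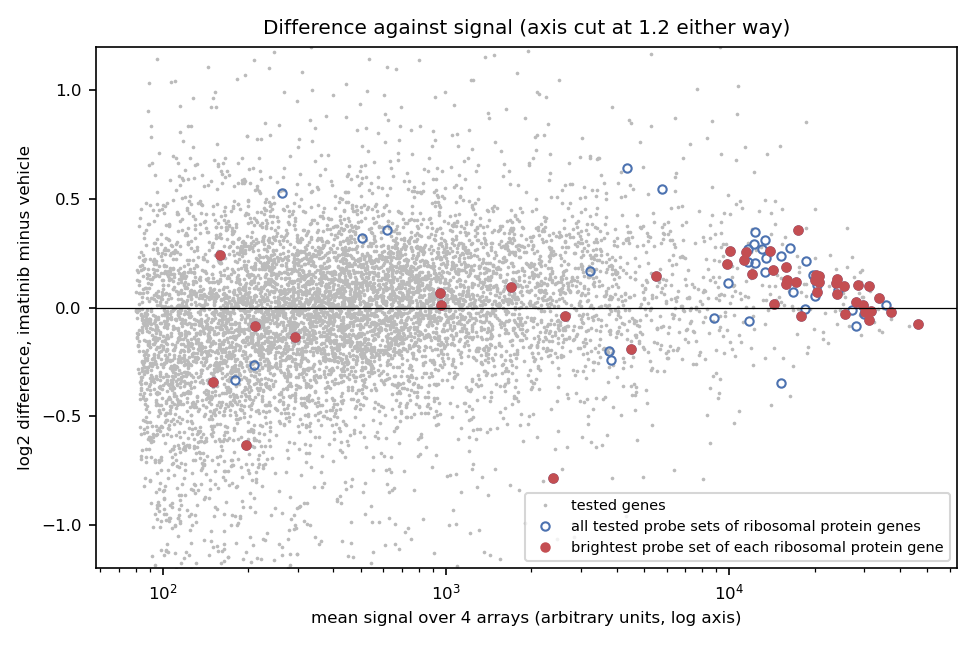
Log2 difference, imatinib minus vehicle, against mean signal over the 4 arrays (log axis): grey points are all tested genes, filled red points the brightest probe set of each ribosomal protein gene and open blue circles all their tested probe sets; grey points beyond 1.2 either way are outside the axis. Probe sets between 10000 and 20000 lie mostly above 0, those at 20000 and above lie nearer 0, and Rpl27a lies at -0.78.

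The imatinib arrays were not equal for these genes. Imatinib array 1 read higher than imatinib array 2 in 38 of the 46 tested members (82.6%), against 49.6% of all tested genes. Vehicle array 1 read higher than vehicle array 2 in 28 members (60.9%), nearer the 52.2% of all tested genes. The members' middle signal was 15158 and 15493 under vehicle, against 17368 and 17060.4 under imatinib. Without imatinib replicate 1 the median log2 difference was 0.04 with 1 member higher, and without imatinib replicate 2 it was 0.15 with 5 higher.

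The direction of the group depended on how the arrays were scaled. The deposited values set the trimmed mean of every array equal. Under quantile normalization the members' median was 0.02 with 1 higher and 2 lower, and with equal array medians it was 0.29 with 4 higher and 1 lower. With the mean log2 signal of the macrophage identity markers set equal it was -0.42 with 0 higher and 44 lower. Setting the hybridization controls equal gave 0.42 with 37 higher and 1 lower. These are bacterial and phage transcripts added at the hybridization step, so this scale does not measure the RNA amount of a sample. The median of all tested genes moved as well, to 0.02, 0.16, -0.49 and 0.28. Relative to it the members stood at 0.12 on the deposited scale, and at -0.00, 0.13, 0.08 and 0.14 under the 4 other scalings in the same order. Of all calls 43.8% were higher on the deposited scale, 44.2% under quantile normalization, 70.1% with equal array medians, 1.70% on the macrophage scale and 86.9% on the hybridization control scale. Rpl27a was called lower under all 5. Rplp0, at 0.36 on the deposited scale, had 0.25, 0.55, -0.16 and 0.68 under the others and was not called on the macrophage scale. That scale counts dim and bright markers alike, and the markers did not move alike. On the deposited scale they differed by -0.09 for C1qb to 1.16 for Mertk. Among the brightest, Csf1r (0.12), C1qa (0.05) and C1qb were not called, while Lyz1 (0.37) was higher. Scales from a part of the markers were not tested.

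**Figure D4:**
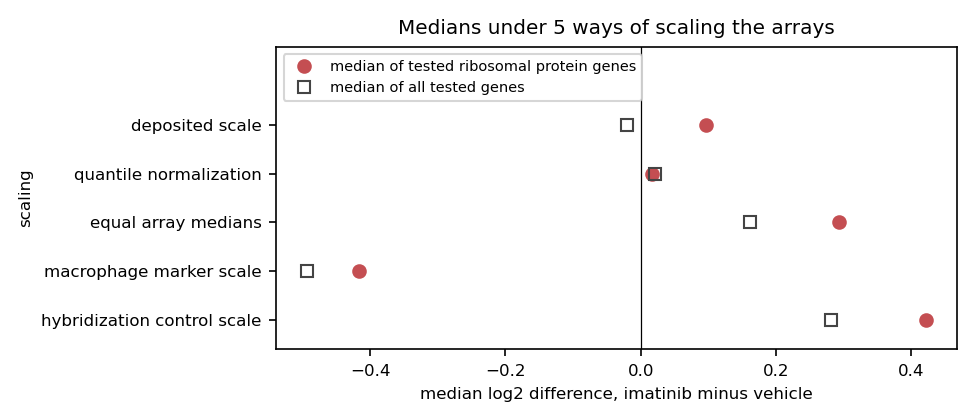
Median log2 difference, imatinib minus vehicle, of the tested ribosomal protein genes (filled circles) and of all tested genes (open squares) under 5 ways of scaling the 4 arrays. The ribosomal protein median is between -0.42 and 0.42 and follows the median of all genes, with a distance between -0.00 and 0.14.

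Cell type markers moved between the groups on the same arrays. Of 17 macrophage identity genes, all tested and none at 0, 13 were higher, and their summed signal was 176606 and 176111 on vehicle against 222480 and 212438 under imatinib. The dimmest of them, Itgam, lay between 64.3 and 202. Of 13 tested epithelial genes all were lower, and the sum over 14 was 33877 and 34154 against 7139 and 7096. Of 12 tested fibroblast genes 7 were lower, with sums of 8332 and 8973 against 4226 and 4629. Of 13 cell cycle genes 2 were lower (sums 8050 and 8148 against 7606 and 7073). Of 8 tested dendritic cell genes 4 were higher (sums 1668 and 1662 against 2621 and 2812), as were 3 of 7 NK and cytotoxic genes (4193 and 4181 against 5480 and 5240) and 2 of 4 neutrophil genes (795 and 633 against 1005 and 1014). Of 5 genes of GIST and interstitial cells of Cajal 2 were lower (1662 and 1634 against 1142 and 1174), and of 4 smooth muscle genes 1 was lower. Among 8 B and plasma cell genes 2 were higher and 2 lower, and no T cell, endothelial or mast cell gene was called in limma (0 of 8, 6 and 2, with 0 of each at an unadjusted p under 0.05). Gapdh control probe sets, whose 3′ over 5′ ratio rises as RNA is less intact, gave 2.91 and 2.76 on vehicle against 2.34 and 2.09 under imatinib. The part of these shifts in the ribosomal protein values was not tested. In sorted pools, fewer cells of a type and less RNA per cell cannot be told apart.

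The rest of the translation machinery had a median difference near 0 on the deposited scale, but spread more widely than the members. Of 134 tested genes in lists of related genes 8 were higher (5.97%) and 2 lower (1.49%), against 6.8% and 8.73% of all tested genes. Their median was 0.02, with quartiles of -0.14 and 0.19, beside -0.02 and 0.15 for the members. Fau, whose product contains ribosomal protein S30, read 23840 and 23692 on vehicle against 24050.1 and 22926 under imatinib (-0.02, adjusted p = 0.91). Of 11 elongation and termination genes 1 was lower, Abce1, which splits ribosomes for recycling (690.1 and 703 against 464 and 537, log2 difference -0.46, limma adjusted p = 0.031). Abce1 kept its call in 9 of 18 alternatives, and was 0.04 when probe sets with shared probes were left out. Of 30 initiation factors 3 were higher, Eif3l (0.37, limma adjusted p = 0.037), Eif1b (0.31, adjusted p = 0.049) and Eif3h (0.30, adjusted p = 0.026). Eif3l kept its call in 9 of 18 alternatives, Eif1b in 8 of 18 and Eif3h in 11 of 19. The 1 lower was Eif2s2, the beta subunit of the factor that brings the initiator tRNA (3734 and 3099 against 2489 and 2539, -0.43, limma adjusted p = 0.013). Eif3l turned to -0.08 and lost its call in the mean over its probe sets.

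Of 11 other TOP transcripts that encode no ribosomal protein, 2 were higher, beside a background of 6.8% of all tested genes. Gas5, a non-coding TOP RNA that hosts small nucleolar RNAs, rose from 3476 and 3666 to 5042 and 4589.8 (1.34-fold, log2 difference 0.43 ± 0.08, SE, limma adjusted p = 0.0051). The nucleolar chaperone gene Npm1 rose from 6995 and 7359 to 9322 and 8677 (0.32, adjusted p = 0.015). Npm1 was also the 1 gene called among 62 nucleolar ribosome biogenesis genes, whose median was -0.05. Among 20 regulators of ribosome supply and TOP mRNA translation Max, the partner of Myc (0.61), Pdcd4, an inhibitor of the helicase eIF4A (0.43), and Maf1, a repressor of RNA polymerase III (0.34), were higher. Myc itself read 573 and 502 on vehicle against 732 and 685 under imatinib (0.38, adjusted p = 0.061). Larp1 (-0.04), Mtor (-0.02) and Eif4ebp1 (-0.03) did not pass, and their groups overlapped. On the macrophage scale Eif3l, Eif1b, Eif3h, Gas5, Npm1, Pdcd4 and Maf1 all turned negative.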

How the data were processed

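The authors deposited microarray signal intensities on a linear scale, and the submitters' processing notes list MAS5 and Affymetrix Expression Console without versions or settings. Each array was hybridized from 200 ng of RNA, and the number of arrays limits the precision. Of 22690 probe sets 64 are controls; of the others 20380 carry 1 gene symbol in the platform annotation, 691 several and 1555 none. Signals were transformed as log2(signal + 32), which understates changes of dim genes. A gene was tested if its brightest probe set reached, in mean log2 value, the 40th percentile over non-control probe sets (a signal of 79.8), which 8145 of 12393 genes had. Groups were compared with limma (two-sided; lmFit, then eBayes with trend; 8.71 prior and 2 residual degrees of freedom). P-values were adjusted by Benjamini-Hochberg, with calls below 0.05. The procedure was tested on simulated data, with planted changes larger than the increases of Rplp0, Rps3 and Rps19. It was not tested on changes of their size. Intervals are limma's at 95%. Members and gene lists were chosen with earlier results of these data known. Named genes are the called members (up to 8 each way), the 5 brightest, members with known roles, paralogues, members whose probe sets disagree in a call, and up to 4 called genes of each other list. Rpl6, Rpl8, Rps26, Rps27, Rpl12, Rpl14, Rpl22 and Rpl39, and Rpl35 and Rps18 for their sequences, were added after their values were seen. Replicate numbers do not pair the arrays by any label. Alternatives are listed with their effect in the closing section. The tools were R 4.3.3, limma 3.58.1, Python 3.11.15, pandas 2.3.3, numpy 2.4.6 and matplotlib 3.10.9.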

Additional observations from a re-analysis of the deposited data

Results flagged for a closer look

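Control probe sets for 18S ribosomal RNA, which no comparison above used, were brighter with imatinib. The one at the 3′ end read 7202 and 7347 with vehicle and 10338 and 10226 with imatinib, a ratio of mean signals of 1.41, and the one at the 5′ end read 27881 and 26887 against 29547 and 29669, a ratio of 1.08. In the middle of the transcript the vehicle arrays read 18480 and 16947 and the imatinib arrays 18220.0 and 20054, and the groups overlapped.

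Of 102 probe sets that list a ribosomal protein symbol among several, 92 were tested, and 15 were called higher (16.3%) and 2 lower, against 6.28% and 7.35% of all probe sets (limma). Their median log2 difference was 0.12, beside 0.10 for the probe sets with 1 ribosomal protein symbol. They were not compared with equally bright probe sets.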

How the results depend on the processing

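With 2 arrays a group only differences well beyond the spread of duplicates can pass, and the members under a signal of 400 have the widest intervals. Rpl27a kept its direction and its call in all 19 alternatives. Over 61 genes and these alternatives 871 values kept direction and side of the threshold, 74 kept direction and lost the call, 73 kept it and gained one, and 114 changed sign, many of them small values that no fit called; where a cause is not evident from the setting, it was not tested. Main counts, higher and lower, were 3 and 1 for ribosomal protein genes, 554 and 711 for all tested genes and 8 and 2 for the other translation genes.

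Quantile normalization gave 1 and 2 ribosomal protein genes with a median of 0.017, and 4 other translation genes lower. Equal array medians gave a median of 0.29, 1239 genes higher, and 24 and 0 other translation genes. The macrophage scale gave 0 and 44 with a median of -0.42, 93 and 5366 genes, and 0 and 98 other translation genes. The hybridization control scale, added after the data were seen, gave 37 higher with a median of 0.42, 2913 and 438 genes, and 65 and 0 other translation genes. No filter gave 1 ribosomal protein gene higher, 356 genes higher, and 1 and 1 other translation genes. The 90th percentile filter gave 5 higher, 355 and 153 genes, and 1 other translation gene lower. The mean of probe sets gave 7 higher (15.2%, against 6.69% of all tested genes), a median of 0.12 and 0 other translation genes lower. Leaving out probe sets with shared probes gave 6 higher (15.8%, against 7.35%), a median of 0.12 and 1 other translation gene lower. Limma without the trend gave 0 ribosomal protein genes higher, 199 genes higher, and 0 and 0 other translation genes. In limma with the trend, 12 of the 46 tested members had an unadjusted p under 0.05 in either direction, as did 2287 of all 8145 tested genes.

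The replicate number as a block gave 1 ribosomal protein gene higher and 4 other translation genes higher. Deviations of equally numbered arrays correlated at -0.13, and the crossed pairing as a block, added after the data were seen, gave 8 and 2, 875 and 1087, and 18 and 6 calls in the 3 sets.

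Leaving out 1 array in turn gave 0 to 5 ribosomal protein genes higher and 1 to 2 lower, a median of 0.036 to 0.15, 286 to 466 genes higher and 497 to 686 lower, and 2 to 5 other translation genes higher and 0 to 3 lower.

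On the macrophage scale the following changed sign: Eif1b (-0.19), Eif3h (-0.22), Eif3l (-0.13), Gas5 (-0.088), Maf1 (-0.17), Myc (-0.11), Npm1 (-0.19), Pdcd4 (-0.073), Rpl10a (-0.41), Rpl11 (-0.33), Rpl13a (-0.42), Rpl14 (-0.19), Rpl19 (-0.39), Rpl22 (-0.36), Rpl22l1 (-0.37), Rpl27 (-0.50), Rpl35 (-0.44), Rpl37a (-0.51), Rpl38 (-0.47), Rpl4 (-0.34), Rpl41 (-0.46), Rpl6 (-0.26), Rpl7 (-0.37), Rpl7a (-0.40), Rpl7l1 (-0.49), Rpl8 (-0.30), Rplp0 (-0.16), Rplp2 (-0.42), Rps10 (-0.39), Rps15 (-0.39), Rps18 (-0.49), Rps19 (-0.26), Rps2 (-0.40), Rps25 (-0.44), Rps26 (-0.31), Rps3 (-0.25), Rps3a1 (-0.42), Rps4x (-0.41), Rps6 (-0.42), Rps7 (-0.37). On the hybridization control scale these did: Eif4ebp1 (0.30), Fau (0.31), Larp1 (0.28), Mtor (0.28), Rpl37 (0.29), Rpl39 (0.16), Rps14 (0.31), Rps20 (0.27), Rps24 (0.31), Rps27l (0.14), Rps28 (0.31), Rps29 (0.25), Rps4l (0.20), Rps9 (0.29), Rpsa (0.30). With equal array medians these did: Eif4ebp1 (0.17), Fau (0.18), Larp1 (0.16), Mtor (0.16), Rpl37 (0.16), Rpl39 (0.044), Rps14 (0.18), Rps20 (0.14), Rps24 (0.18), Rps27l (0.0088), Rps28 (0.18), Rps29 (0.12), Rps4l (0.090), Rps9 (0.16), Rpsa (0.17). Under quantile normalization these did: Mtor (0.023), Rpl10a (-0.042), Rpl22 (-0.017), Rpl27 (-0.13), Rpl37a (-0.011), Rpl41 (-0.0070), Rpl7l1 (-0.0033), Rps15 (-0.0091), Rps18 (-0.018), Rps28 (0.017), Rps4l (0.010). In the mean of probe sets these did: Eif3l (-0.084), Mtor (0.31), Rpl41 (-0.12), Rps14 (0.041), Rps20 (0.092), Rpsa (0.24). Without probe sets that share probes these did: Abce1 (0.039), Eif4ebp1 (0.34), Rpl41 (-0.33). Leaving out 1 array in turn changed the sign of 17 genes, which no fit called without that array, with lowest and highest values of Fau (-0.052 to 0.017), Larp1 (-0.16 to 0.090), Mtor (-0.16 to 0.12), Rpl27 (-0.021 to 0.051), Rpl37 (-0.17 to 0.089), Rpl37a (-0.020 to 0.041), Rpl38 (-0.015 to 0.10), Rpl39 (-0.53 to 0.26), Rpl7l1 (-0.069 to 0.095), Rps14 (-0.059 to 0.017), Rps18 (-0.044 to 0.098), Rps24 (-0.069 to 0.035), Rps25 (-0.11 to 0.25), Rps28 (-0.071 to 0.028), Rps6 (-0.012 to 0.20), Rps9 (-0.090 to 0.012), Rpsa (-0.084 to 0.030).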
